A study of Homo sapiens with 29 samples.

Results

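The comparison set tumours given decitabine and doxorubicin together against tumours given vehicle, in orthotopic xenografts of a paclitaxel-resistant line. The line derives from MDA-MB-231 cells, which are human, mesenchymal in character and of the triple-negative type of breast cancer. Its members were chosen by their sample titles and comprised 7 of the 29 libraries of the series: 3 of combination tumours and 4 of vehicle tumours. Messenger RNA was measured in each by 3′ tag counting. The stated question of the study was whether chemotherapy resistance is tied to transcript changes set by DNA methylation, and whether a DNA methyltransferase inhibitor reverses them and makes resistant cells respond to chemotherapy.

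The combination group received decitabine at 0.4 mg/kg on days 1 to 4 and 10 to 11 of each cycle and doxorubicin at 1 mg/kg on days 5 and 12. The decitabine group (3 libraries) and the doxorubicin group (4 libraries) of the same line received 1 of the drugs on those days, and the vehicle group received a solution not described further in the labels. All 4 groups shared the cell line, the SCID-beige host, which lacks mature T and B cells, the injection of 1500000 cells on both sides of a mouse, the start of treatment on day 16, and 2 cycles of 12 days with 2 days of rest, 26 days in all. Parental tumours under the combination (4 libraries) and under vehicle (4 libraries) were used to test whether the lines responded differently. They arose from 250000 cells and were treated from day 6, so the line cannot be told apart from these settings. The resistant tumours stand for 1 derived line. The design gives 4 mice per treatment, but which mouse each library came from is not stated. Libraries of a group may thus share a mouse, and the p-values cover only the spread between libraries.

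Decitabine is a cytidine analogue that is built into DNA during replication and traps DNA methyltransferases there, so that methylation is lost over the following cell divisions. Genes silenced by promoter methylation, among them cancer-testis genes that are normally read only in germ cells, can then be transcribed, and in many tumour cells interferon-stimulated genes rise as well. Doxorubicin is an anthracycline that intercalates into DNA and poisons topoisomerase II, which gives double-strand breaks.

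The 7 libraries held between 3892678 and 4880313 counts. VIM, the intermediate filament of mesenchymal cells, lay between 1722 and 2455 CPM in combination tumours and between 2189 and 2491 CPM in vehicle tumours, and the mesenchymal marker genes CD44 and AXL were at 531 CPM or more in each of the 7 libraries. The epithelial splicing factor ESRP1 had 2 counts in all in the combination group and 4 in the vehicle group. E-cadherin (CDH1), which is known to be low in this line, was counted at 108 to 169 CPM in combination tumours and 78.7 to 152 CPM in vehicle tumours, which is not low. The drug efflux pump ABCB1 had 1 count in the combination group and 2 in the vehicle group and was too low to test. On the first principal component of the 14 resistant libraries (34.4% of the variance), the combination libraries lay at -23.2, -23.3 and -3.69, while the vehicle libraries lay between 10.5 and 19.2. Decitabine library 2 stood apart at -49.7.

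Most of the genes called between combination and vehicle tumours were higher in combination tumours. Of 13495 genes tested, 123 were higher and 29 were lower in combination tumours, which is 0.911% and 0.215% of the genes tested. The calls rest on an adjusted p under 0.05 in edgeR's quasi-likelihood test with Benjamini-Hochberg adjustment over all genes tested, and all adjusted p-values below are from that test. By at least 1 on the log2 scale, 90 of the called genes were higher and 11 were lower. Of the genes called higher, 31 had a mean under 1 CPM under vehicle, 50 had 1 to 10 CPM and 42 had 10 CPM or more, and of all genes tested 261 had under 1 CPM. Genes under 1 CPM under vehicle passed the filter on low counts only through another group. They could hardly be called lower, so the 31 and the 261 are partly set by the filter. The higher genes comprised 111 protein-coding genes and 10 long non-coding RNAs. The median log2 change of all genes tested was -0.0020. With no filter on low counts, 351 genes were called higher and 432 lower. The groups did not overlap in CPM for 6.46% of all genes tested on the higher side and 6.93% on the lower side.

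The number of calls rested on single libraries. It was 49 without combination 1, 63 without vehicle 2, 65 without vehicle 4 and 88 without vehicle 1, against 152 with all libraries, and it lay between 132 and 156 without any 1 of the other 3. DESeq2 called 256 genes. Of the 152 genes, 37 were called in each of the 7 fits that left out 1 library, 35 of them higher and 2 lower, and all 152 had the same direction in those fits.

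**Figure D1:**
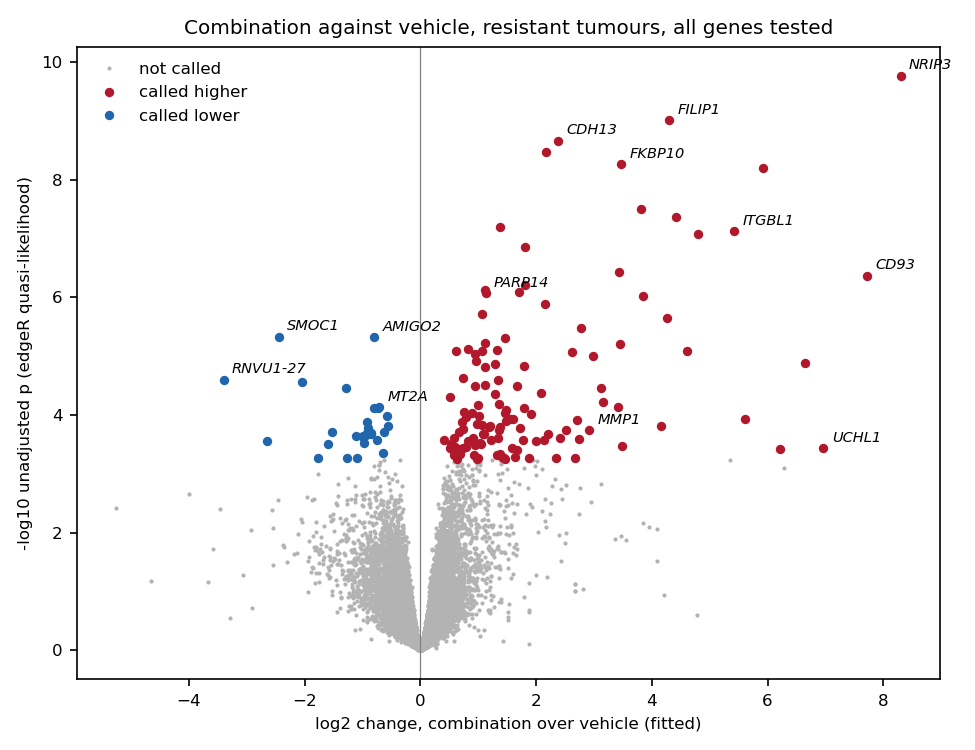
Fitted log2 change (x axis, combination over vehicle) against the unadjusted p of edgeR's quasi-likelihood test on a -log10 scale (y axis) for the 13495 genes tested in resistant tumours; red points are the 123 genes called higher in combination tumours, blue points the 29 called lower and grey points the rest. The called genes with the largest changes lie to the right, and fitted values of genes without counts under vehicle, such as NRIP3, CD93 and UCHL1, depend on the prior count of the fit.

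Several of the genes that rose had no or almost no counts in vehicle tumours. They were tested only because other groups held enough counts. NRIP3 (ENSG00000175352, chromosome 11, 8980576 to 9004049 on GRCh38, the build of all positions given here), which encodes a nuclear receptor-interacting protein, was at 8.01, 11.6 and 6.03 CPM in combination tumours, against 0 in each of the 4 vehicle tumours. With 115 counts against 0, it was at least 47.2-fold higher (floor of 3 counts over the vehicle group, adjusted p = 2.33e-06). CD93 (chromosome 20, 23079349 to 23086340), a lectin-like surface receptor known from endothelial and myeloid cells, was at 4.55, 8.22 and 4.42 CPM in combination tumours, against 0 in each vehicle tumour. It had 77 counts against 0 and was at least 31.6-fold higher (adjusted p = 0.000416). Both genes were called in 7 of 7 fits that left out 1 library, and no combination library overlapped a vehicle library.

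UCHL1 (chromosome 4, 41256413 to 41268455), a ubiquitin hydrolase of neurons, was less even. It was at 4.55, 0.967 and 4.42 CPM in combination tumours, with 47 counts against 0 in vehicle tumours, at least 19.3-fold higher (adjusted p = 0.0386). The call was lost in 6 of 7 fits that left out 1 library, with an adjusted p of 0.163 without combination 1, 0.0695 without combination 3 and 0.0674 to 0.0972 without a vehicle library. The cancer-testis gene MAGEB2 (chromosome X, 30215560 to 30220089) was at 2.60, 1.69 and 6.03 CPM in combination tumours, against 0, 0.253, 0 and 0.226 CPM in vehicle tumours. The counts were 49 against 2, a ratio of 30.2 (exact 95% interval 7.92 to 256, adjusted p = 0.00339), and the call was kept in every fit that left out 1 library. MAGE genes resemble each other, so that reads could have been split between copies. Of 9 cancer-testis genes tested, MAGEB2 was the 1 called higher, against 0.911% of all genes tested. Of the 9, 6 lay above 0, and the median log2 change was 0.53, which ranged from -0.30 to 0.75 over the 16 other settings tried.

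The promoters of UCHL1 and MAGEB2 are shown because both genes had counts in each combination library and 0 to 2 counts in all under vehicle. They were also chosen for holding many CpG, the dinucleotide whose methylation decitabine reduces, compared with other genes that were almost silent under vehicle. Each runs from 250 bases before to 50 after the RefSeq start on GRCh38.p14, on the plus strand, with CpG in capitals. UCHL1 (chr4:41256678-41256977) holds 25 CpG and MAGEB2 (chrX:30215313-30215612) holds 21.
UCHL1: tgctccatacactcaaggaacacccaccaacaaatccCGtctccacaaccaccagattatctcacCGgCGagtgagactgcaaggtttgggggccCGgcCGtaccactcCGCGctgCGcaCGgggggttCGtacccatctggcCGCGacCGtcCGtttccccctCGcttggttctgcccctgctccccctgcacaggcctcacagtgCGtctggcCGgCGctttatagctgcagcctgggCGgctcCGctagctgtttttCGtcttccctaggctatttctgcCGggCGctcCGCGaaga
MAGEB2: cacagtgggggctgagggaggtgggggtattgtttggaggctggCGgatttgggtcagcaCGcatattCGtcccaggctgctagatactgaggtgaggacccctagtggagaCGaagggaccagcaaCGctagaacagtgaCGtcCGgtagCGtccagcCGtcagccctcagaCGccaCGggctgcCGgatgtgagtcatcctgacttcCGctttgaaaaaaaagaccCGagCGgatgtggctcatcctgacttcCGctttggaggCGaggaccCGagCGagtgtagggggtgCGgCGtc
The median number of CpG in such windows was 16 for genes called higher and 26 for all genes tested, so both windows lie below the median of the genes tested. For genes called higher with under 1 CPM under vehicle it was 8, with 64.7% of the windows under 10 CpG, so the windows shown are not typical of that group either (17 of its 31 genes had a window). That comparison is void, since a window was found for 82 of 123 genes called higher (66.7%) and for 74.2% of the genes tested, under the 80% set as the minimum. No methylation was measured in these samples.

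Other low genes rose in the same way. PICSAR, a long non-coding RNA, had 37 counts in combination tumours against 0 in vehicle tumours and was at least 15.2-fold higher. ITGBL1, a secreted protein with integrin-like repeats, had 51 counts against 1, a ratio of 62.8 (exact 95% interval 10.8 to 2529). TMEM204, a claudin-like membrane protein, was at 5.63, 5.32 and 6.03 CPM in combination tumours, against 0.243, 0.507, 0 and 0 CPM in vehicle tumours. FILIP1, which binds filamin A, was at 5.196, 6.77 and 7.03 CPM in combination tumours, against 0, 0.507, 0.452 and 0.226 CPM in vehicle tumours (log2 4.30, SE 0.48, adjusted p = 6.69e-06). The 3 combination values of TMEM204 and FILIP1 lay close together and far above every vehicle value, and the 4 genes were called in 7 of 7 fits that left out 1 library. With almost no vehicle counts, the genes of this paragraph passed the filter on low counts only through other groups. Their separation from vehicle and their kept calls are thus partly set by the filter. PTPN7, a phosphatase of blood cells, LRRC17, a secreted leucine-rich repeat protein, and CACNG8, a calcium channel subunit of neurons, had 52, 39 and 40 counts in combination tumours and 3 counts each in vehicle tumours. The ratios were 21.3 (exact 95% interval 6.91 to 107) for PTPN7, 16.0 (5.09 to 81.0) for LRRC17 and 16.4 (5.23 to 83.0) for CACNG8, and intervals and floors cover counting error only.

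**Figure D2:**
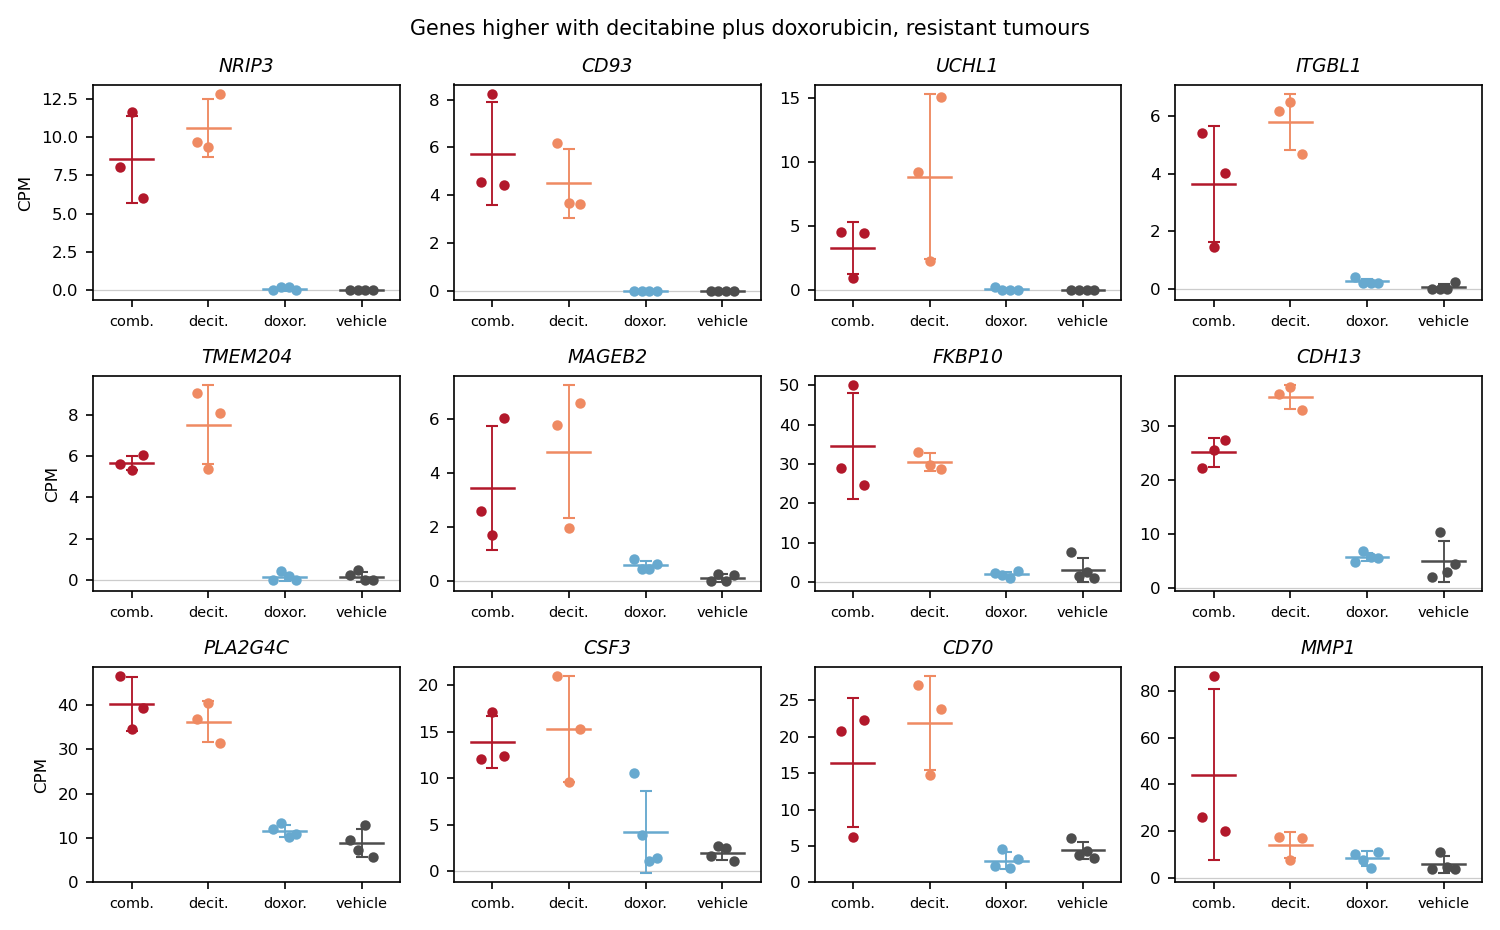
Read counts scaled to library size (CPM, y axis, linear, from 0 with a scale of its own for each gene) of 12 genes in the 4 groups of resistant tumours, from left combination (3 libraries), decitabine (3), doxorubicin (4) and vehicle (4); points are libraries, horizontal bars are means and error bars are SD. NRIP3 lay between 6.03 and 11.6 CPM in combination tumours and at 0 in vehicle tumours, while the mean of MMP1 was set by combination library 2 at 86.3 CPM.

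Genes with a measurable level under vehicle also rose. FKBP10 (chromosome 17, 41812680 to 41823217), a prolyl isomerase of the endoplasmic reticulum that acts on collagen, was at 29.01, 50.0 and 24.7 CPM in combination tumours, against 7.53, 1.52, 2.49 and 0.904 CPM in vehicle tumours (log2 3.47, SE 0.42, adjusted p = 1.44e-05). CDH13 (chromosome 16, 82626803 to 83800640), a cadherin held to the membrane by a lipid anchor, was at 22.3, 25.6 and 27.5 CPM in combination tumours, against 1.94, 10.4, 2.94 and 4.29 CPM in vehicle tumours (log2 2.37, SE 0.28, adjusted p = 9.85e-06). PLA2G4C, a phospholipase A2 of the cytosol, averaged 40.1 ± 6.04 CPM in combination tumours (SD, n = 3) and 8.84 ± 3.12 CPM in vehicle tumours (SD, n = 4). ALDH1A3, an aldehyde dehydrogenase that makes retinoic acid, averaged 21.8 ± 3.33 CPM in combination tumours and 6.22 ± 1.28 CPM in vehicle tumours (log2 1.81, SE 0.26, adjusted p = 0.000155). No combination value of the 4 genes reached down to a vehicle value, and each was called in 7 of 7 fits that left out 1 library.

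Several ligands and secreted proteins, gathered here from the called genes after their values were seen, rose as well. CSF3, the granulocyte colony-stimulating factor, was at 12.1, 17.2 and 12.5 CPM in combination tumours, against 1.70, 2.79, 2.49 and 1.13 CPM in vehicle tumours (log2 2.77, SE 0.48, adjusted p = 0.00196). SPP1, the matrix protein osteopontin, was at 9.09, 12.1 and 6.83 CPM in combination tumours, against 0.728, 3.29, 1.36 and 0.678 CPM in vehicle tumours (log2 2.62, SE 0.48, adjusted p = 0.00339). EREG, a ligand of the EGF receptor, averaged 18.8 ± 2.79 CPM in combination tumours and 8.64 ± 1.38 CPM in vehicle tumours (log2 1.11, SE 0.21, adjusted p = 0.00509). These 3 genes were called in every fit that left out 1 library. CD70, the TNF family ligand of CD27, was uneven, at 20.8, 6.28 and 22.3 CPM in combination tumours against 3.39 to 6.07 CPM in vehicle tumours (log2 1.91, SE 0.42, adjusted p = 0.0199), and combination 2 lay just above the highest vehicle library. Its call was lost without combination 1 (adjusted p = 0.138), combination 3 (0.0695), vehicle 2 (0.0692) or vehicle 4 (0.0804).

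Combination library 2 was far above the other combination libraries for 3 called genes, although all 3 combination libraries lay above every vehicle library. MMP1, the interstitial collagenase, was at 26.2, 86.3 and 20.3 CPM in combination tumours, against 3.89, 11.2, 4.52 and 3.84 CPM in vehicle tumours (log2 2.92, SE 0.65, adjusted p = 0.0275). Without combination 2 its adjusted p was 0.172, and the call was also lost without vehicle 1 (0.0815), vehicle 3 (0.0646) or vehicle 4 (0.095). HCLS1, a cortactin-like protein of blood cells, was at 28.4, 103 and 22.7 CPM in combination tumours against 5.32 to 22.2 CPM in vehicle tumours (log2 2.09, SE 0.42, adjusted p = 0.0114), and its adjusted p was 0.169 without combination 2, 0.0522 without vehicle 2 and 0.0526 without vehicle 4. RFX8, a transcription factor of the RFX family, was at 6.49, 33.1 and 6.03 CPM in combination tumours against 0.226 to 3.04 CPM in vehicle tumours and was called in 7 of 7 such fits. Combination 2 was also the highest of the combination libraries for COL1A1, the main collagen of fibroblasts, at 1730 CPM against 321 and 314 CPM in the other two. Vehicle 2 had 1482 CPM of COL1A1, and the part of this difference in the results was not tested.

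Some interferon-stimulated genes rose with the combination. Of 46 tested, 11 were called higher, against 0.911% of all genes tested, and none was called lower, 45 had a fitted change above 0, and the median log2 change was 0.66 against -0.0020 over all genes tested. The called members were PARP14, DDX60, OAS2, HERC6, PARP9, DTX3L, EIF2AK2, MX2, RSAD2, OAS3 and IFIH1. The median was between 0.58 and 0.81 in the 16 other settings tried. The number called was 1 without combination 1, 4 without combination 3, 3 without vehicle 1, 2 without vehicle 2 or vehicle 4, and 12 without combination 2 or vehicle 3, and DESeq2 called 19. By library, the list median relative to the vehicle mean was 0.88, 0.42 and 0.72 (log2) in combination tumours, and the highest of the vehicle libraries was 0.33. For 18 of the 46 every combination library was above every vehicle library, which held for 6.46% of all genes tested.

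Among the antiviral sensors and effectors, PARP14 (chromosome 3, 122680618 to 122730840), an ADP-ribosyltransferase, was at 123, 80.3 and 102 CPM in combination tumours, against 43.7, 40.3, 57.2 and 44.8 CPM in vehicle tumours (log2 1.13, SE 0.18, adjusted p = 0.000648). DDX60 (chromosome 4, 168216293 to 168318807), a helicase, was at 84.9, 53.7 and 66.7 CPM in combination tumours, against 31.1, 26.1, 38.9 and 29.8 CPM in vehicle tumours (log2 1.12, SE 0.20, adjusted p = 0.00294). Neither gene overlapped between the groups. PARP14 was called in 7 of 7 fits that left out 1 library, and DDX60 missed the threshold without combination 1 (adjusted p = 0.052). OAS2, which makes the second messenger that activates RNase L, was at 80.1, 40.6 and 48.2 CPM in combination tumours, against 16.5, 15.2, 36.4 and 18.8 CPM in vehicle tumours (log2 1.37, SE 0.31, adjusted p = 0.0264), and vehicle 3 came near to combination 2. Without combination 1 its adjusted p was 0.258, without vehicle 1 it was 0.0818, without vehicle 2 it was 0.0965 and without vehicle 4 it was 0.0883. IFIH1, the double-stranded RNA sensor MDA5, averaged 18.8 ± 4.08 CPM in combination tumours and 9.44 ± 3.43 CPM in vehicle tumours (log2 0.99, SE 0.25, adjusted p = 0.0493), and its call was lost in 5 of 7 such fits. RSAD2, the antiviral enzyme viperin, had 28 counts in combination tumours and 0 in vehicle tumours, at least 11.5-fold higher. None of those counts was in combination 2, and the call was lost in 6 of 7 such fits. The members ISG15, IFI44 and IFI27 were among those not called, with adjusted p-values of 0.227, 0.151 and 0.113. A separate list of nucleic acid sensors and their signalling, which does not hold IFIH1, had 16 genes tested and 0 called. Of these, 14 lay above 0 and the median log2 change was 0.16.

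The promoters of DDX60 and PARP14 are shown because each holds the motif GAAANNGAAA, a core of the element bound by interferon-regulated factors, beside a rise in the transcript. Both windows run from 250 bases before to 50 after the RefSeq start on GRCh38.p14, with the motif in capitals, and both are written in the direction of the gene. DDX60 (chr4:168318703-168319002, minus strand) holds it at 88 and 53 bases before the start, and PARP14 (chr3:122680589-122680888, plus strand) holds it at 29 bases before the start.
DDX60: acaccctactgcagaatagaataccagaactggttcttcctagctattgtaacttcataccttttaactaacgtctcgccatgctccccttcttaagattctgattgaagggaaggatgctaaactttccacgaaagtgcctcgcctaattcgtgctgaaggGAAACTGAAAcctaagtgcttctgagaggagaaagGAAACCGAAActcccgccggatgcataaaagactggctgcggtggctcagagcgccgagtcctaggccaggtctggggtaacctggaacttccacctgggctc
PARP14: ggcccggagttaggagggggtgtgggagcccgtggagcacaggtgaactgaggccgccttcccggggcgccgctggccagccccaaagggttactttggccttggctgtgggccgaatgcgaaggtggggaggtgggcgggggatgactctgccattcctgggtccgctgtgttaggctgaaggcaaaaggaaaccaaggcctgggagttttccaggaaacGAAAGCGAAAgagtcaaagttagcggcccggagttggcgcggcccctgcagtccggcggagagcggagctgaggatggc
Searched on both strands, with TTTCNNTTTC as its reverse, the motif was in the windows of 24 of the 37 interferon-stimulated genes that had a window (64.9%) and of 6 of the 9 called ones. It was in 1255 of all 35116 promoters of the RefSeq table (3.57%).

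Other inflammatory and death receptor genes rose in smaller numbers. Of 22 NF-kB target genes tested 3 were called higher and none lower, with a median log2 change of 0.46, and of all genes tested 0.911% were called higher. RELB, a subunit of NF-kB, was at 155, 114 and 124 CPM in combination tumours, against 68.0, 58.3, 85.5 and 48.6 CPM in vehicle tumours (log2 1.01, SE 0.22, adjusted p = 0.0207). TRAF1, an adaptor of TNF receptors, and ICAM1, an adhesion molecule for leukocytes, rose by 1.09 (SE 0.26) and 1.37 (SE 0.34) on the log2 scale. Of 18 TNF family ligands and death receptors, CD70, TNFRSF10A and TNFRSF1B were called higher, and of 28 p53 target genes 2 were called higher, GDF15 and TNFRSF10A, against the same 0.911% of all genes tested. GDF15, a stress-induced cytokine, was at 37.7, 20.5 and 31.8 CPM in combination tumours, against 17.5, 11.9, 12.4 and 10.4 CPM in vehicle tumours (log2 1.203, SE 0.28, adjusted p = 0.0258). The p53 target and cell cycle inhibitor CDKN1A was not called (log2 0.27, SE 0.21, adjusted p = 0.53), and the median over the 28 p53 targets was 0.08. Without combination 1 none of RELB, TRAF1, ICAM1, TNFRSF10A, TNFRSF1B and GDF15 kept its call, with adjusted p-values from 0.136 (TRAF1) to 0.399 (TNFRSF1B), and each was also lost without vehicle 4, from 0.0872 (RELB) to 0.166 (TNFRSF1B). Of the 7 fits that left out 1 library, RELB and TRAF1 were called in 3, TNFRSF10A, TNFRSF1B and GDF15 in 2 and ICAM1 in 1.

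No gene of antigen presentation was called. The 8 HLA class II genes tested were all above 0 with a median log2 change of 0.89, and the list median by library was 1.58, -0.17 and 0.70 in combination tumours 1, 2 and 3. HLA-DRA, a chain of the class II molecule HLA-DR, was at 33.6, 9.67 and 25.7 CPM in combination tumours, against 11.2, 16.2, 18.5 and 14.01 CPM in vehicle tumours (adjusted p = 0.429), so combination 2 lay below every vehicle library. Of 16 class I and peptide loading genes 13 were above 0 and the median was 0.32. HLA genes share long stretches of sequence, and their counts are uncertain.

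The genes called lower in combination tumours were fewer and their changes smaller. SMOC1 (chromosome 14, 69854131 to 70032366), a calcium-binding matrix protein, was at 3.03, 3.14 and 3.82 CPM in combination tumours, against 15.1, 23.6, 14.9 and 19.7 CPM in vehicle tumours (log2 -2.44, SE 0.43, adjusted p = 0.00252). AMIGO2 (chromosome 12, 47075707 to 47079951), an adhesion molecule, was at 179, 147 and 170 CPM in combination tumours, against 244, 314, 289 and 302 CPM in vehicle tumours (log2 -0.79, SE 0.14, adjusted p = 0.00252). These were the 2 lower genes called in each of the 7 fits that left out 1 library. NEGR1, a neuronal adhesion molecule, averaged 5.88 ± 1.26 CPM in combination tumours and 14.2 ± 2.97 CPM in vehicle tumours (log2 -1.28, SE 0.26, adjusted p = 0.00949), and was lost only without combination 1 (adjusted p = 0.1).

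Other called lower genes were taken up after their values were seen and stand for no list. DKK1, an inhibitor of Wnt signalling, was at 65.2, 69.1 and 74.6 CPM in combination tumours, against 118, 136, 142 and 159 CPM in vehicle tumours (log2 -0.99, SE 0.24, adjusted p = 0.0317). CCN2, a connective tissue growth factor and a target of YAP, was at 339, 381 and 442 CPM in combination tumours, against 631, 614, 785 and 939 CPM in vehicle tumours (log2 -0.94, SE 0.22, adjusted p = 0.0298). MT2A, a metal-binding metallothionein, was at 1231, 1093 and 1537 CPM in combination tumours, against 2031, 2373, 1973 and 2055 CPM in vehicle tumours (log2 -0.71, SE 0.15, adjusted p = 0.0169). For these 3 genes every combination library was below every vehicle library. S100A6, a calcium-binding protein, fell by 0.62 (SE 0.15), the matrix glycoprotein THBS1 fell by 0.58 (SE 0.13), the Notch ligand JAG1 fell by 0.55 (SE 0.13), and INSIG1, which holds back the activation of sterol synthesis, fell by 0.86 (SE 0.20) on the log2 scale. All 7 genes of this paragraph lost their call without combination 1, with adjusted p-values from 0.0813 (JAG1) to 0.221 (INSIG1). Without combination 2 or vehicle 2 the calls of DKK1 (0.0775 and 0.0728), S100A6 (0.106 and 0.0624), JAG1 (0.0695 and 0.126), INSIG1 (0.0775 and 0.0638) and MT2A (0.0775 and 0.0656) were lost too, and without vehicle 4 those of DKK1 (0.0972), CCN2 (0.106), S100A6 (0.074), THBS1 (0.0844) and INSIG1 (0.0585). CCN2 had 0.0775 without combination 2 and 0.0548 without vehicle 3. The remaining losses were DKK1 without combination 3 (0.0566) or vehicle 3 (0.0548), INSIG1 without vehicle 3 (0.0794), S100A6 without vehicle 1 (0.0565) or vehicle 3 (0.0625), JAG1 without combination 3 (0.0681) or vehicle 1 (0.0547) and THBS1 without combination 3 (0.0524). DKK1 and S100A6 were thus called in 1 of the 7 fits and JAG1 and INSIG1 in 2.

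**Figure D3:**
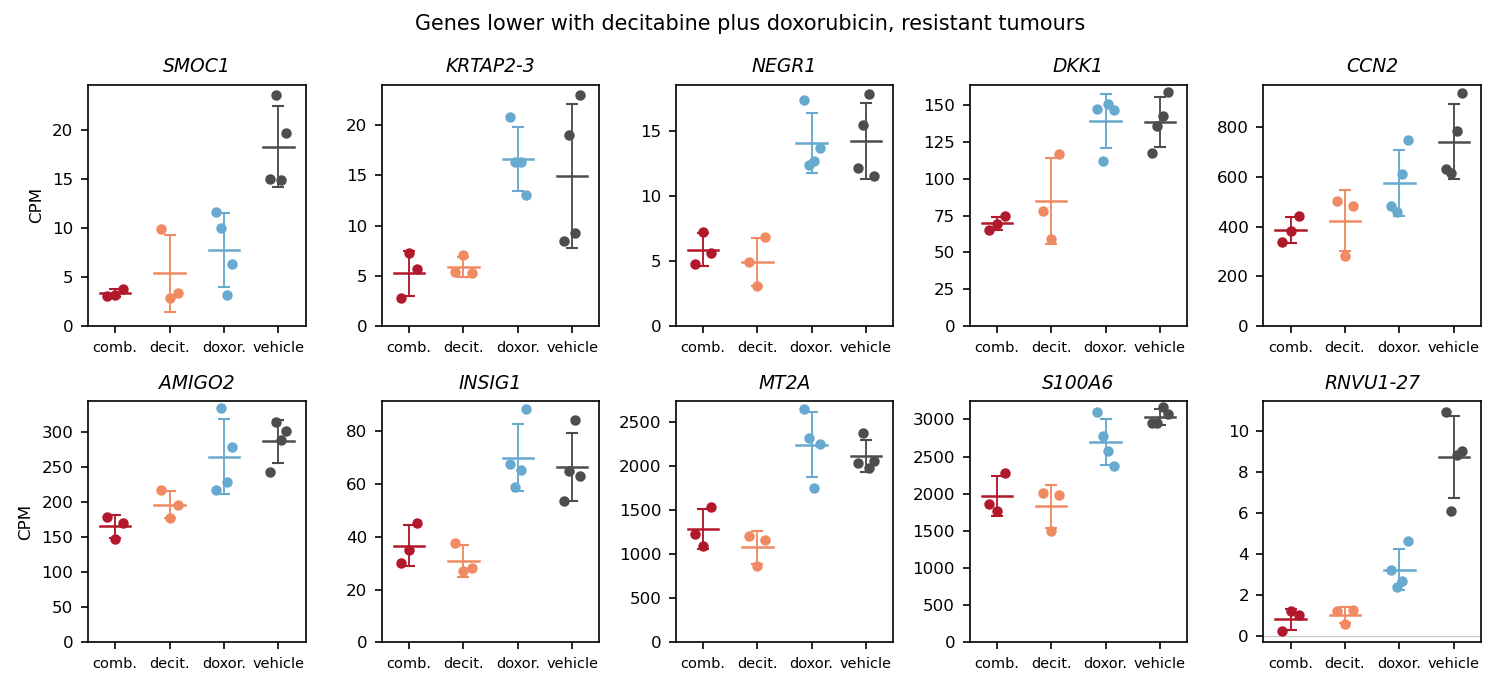
Read counts scaled to library size (CPM, y axis, linear, from 0 with a scale of its own for each gene) of 10 genes in the 4 groups of resistant tumours, from left combination (3 libraries), decitabine (3), doxorubicin (4) and vehicle (4); points are libraries, horizontal bars are means and error bars are SD. SMOC1 lay between 3.03 and 3.82 CPM in combination tumours and between 14.9 and 23.6 CPM in vehicle tumours.

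Of 11 small nuclear RNA genes tested, RNVU1-27 and RNU5B-1 were called lower, against 0.215% of all genes tested, 8 lay lower in combination tumours without overlap of the groups (6.93% of all genes tested did), and the median log2 change was -1.60. RNVU1-27, a variant U1 gene, was at 0.217, 1.21 and 1.01 CPM in combination tumours, against 10.9, 6.08, 8.82 and 9.04 CPM in vehicle tumours (log2 -3.40, SE 0.67, adjusted p = 0.00775, or 0.086 without combination 1). RNU5B-1 had an adjusted p of 0.0493 and was called in 0 of 7 fits that left out 1 library. These RNAs carry no poly(A) tail for the primer to bind, and near-identical copies make each gene uncertain.

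The direct targets of the drugs and the genes of the mitosis and DNA replication lists showed no call. DNMT1, the maintenance methyltransferase, was at 97.0, 146 and 120 CPM in combination tumours, against 179, 187, 114 and 155 CPM in vehicle tumours (log2 -0.39, SE 0.16, adjusted p = 0.239), and the groups overlapped. TOP2A, the topoisomerase that doxorubicin poisons, averaged 841 ± 94.6 CPM in combination tumours and 913 ± 108 CPM in vehicle tumours (log2 -0.12, SE 0.16, adjusted p = 0.744). The de novo methyltransferases DNMT3A and DNMT3B had log2 changes of -0.03 (SE 0.20) and 0.40 (SE 0.42). Of 36 mitosis genes 7 lay above 0 with a median of -0.18, and of 37 DNA replication genes 10 lay above 0 with a median of -0.14. By library, the mitosis median was -0.32, 0.14 and -0.32 in combination tumours, against -0.26 to 0.27 in vehicle tumours. The replication median was -0.26, 0.03 and -0.21, against -0.30 to 0.22, so the groups overlapped for both lists. Of 7 replication-dependent histone genes tested none was called, with a median of -0.10. H4C2, a histone gene outside that list, was called lower (log2 -2.04) and kept its call in 15 of 16 other settings.

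No metabolic or ribosomal gene listed here was called, and the medians of their lists lay below 0. Of 38 cytosolic ribosomal protein genes 2 lay above 0 and the median log2 change was -0.28, against -0.53 in decitabine tumours and -0.06 in doxorubicin tumours, both relative to the same vehicle libraries. Of 35 hypoxia and glycolysis genes 8 lay above 0 with a median of -0.23, against -0.74 in decitabine tumours and -0.07 in doxorubicin tumours. Of 31 nuclear oxidative phosphorylation genes 8 lay above 0 with a median of -0.20. Of 26 immediate-early genes 7 lay above 0 with a median of -0.30, and CCN2 was the 1 gene called lower, against 0.215% of all genes tested. The signs of these 4 medians were kept in all 16 other settings tried, which reuse the same libraries. By library, the hypoxia and glycolysis median was -0.15 in combination 3 and -0.21 in vehicle 4, so the groups overlapped. They did not overlap for the ribosomal, oxidative phosphorylation and immediate-early lists. The decitabine medians include decitabine library 2, which stood apart.

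**Figure D4:**
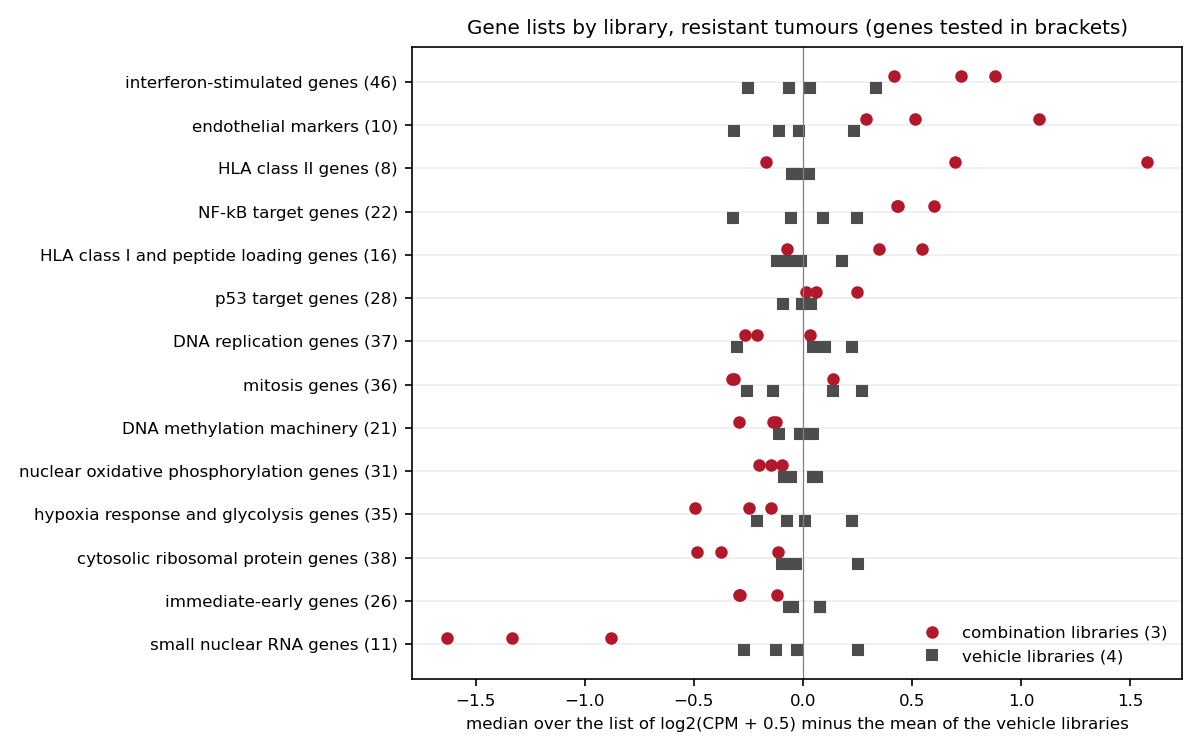
Median over each gene list (rows, number of genes tested in brackets) of log2(CPM + 0.5) minus the mean of the vehicle libraries (x axis), with a red circle for each of the 3 combination libraries and a grey square for each of the 4 vehicle libraries of resistant tumours. The 3 combination libraries lay at 0.88, 0.42 and 0.72 for interferon-stimulated genes and at -1.63, -1.33 and -0.88 for small nuclear RNA genes.

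Summed endothelial and myeloid markers were higher in every combination library than in any vehicle library, and their part in the results on genes known from these cells, such as CD93, PECAM1 and HCLS1, was not tested. The 16 endothelial markers summed to 285 to 361 CPM in combination tumours and 231 to 253 CPM in vehicle tumours. Of 10 tested, TMEM204 and PECAM1 were called higher, against 0.911% of all genes tested. PECAM1, an adhesion molecule of endothelium and platelets, was at 13.4, 23.0 and 11.7 CPM in combination tumours, against 5.34, 5.32, 7.24 and 4.97 CPM in vehicle tumours (log2 1.47, SE 0.26, adjusted p = 0.00252). The defining endothelial genes CLDN5 and PLVAP had no count and VWF had 1 count in each group. The 18 myeloid markers summed to 178 to 190 CPM in combination tumours and 125 to 166 CPM in vehicle tumours. The Fc receptor chain FCER1G (adjusted p = 0.0493, and up to 0.164 without 1 library) was the 1 called higher of 9 tested, against 0.911% of all genes tested. TYROBP, S100A8, S100A9 and FCGR3A had no count. The 16 lymphoid markers summed to 16.7 to 33.4 CPM in combination tumours and 15.4 to 22.1 CPM in vehicle tumours, with CD3E, CD3G, CD2, MS4A1 and GZMB without a count. The 16 fibroblast and pericyte markers summed to 416 to 2127 CPM in combination tumours and 682 to 2121 CPM in vehicle tumours. How reads of mouse stroma were handled was not given in the sources used here, and in bulk tumours fewer cells of a type and less RNA per cell cannot be told apart.

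Against decitabine alone, edgeR called 0 of 13495 genes (0%) in combination tumours, with 504 genes at an unadjusted p under 0.05, and DESeq2 called 0. Each gene named above has its own interval of this difference, not adjusted for the number of genes. For NRIP3, at 9.66, 9.32 and 12.8 CPM in decitabine tumours, the log2 difference of combination over decitabine was -0.32 (95% interval -1.03 to 0.39), and for FKBP10 it was 0.18 (-0.58 to 0.93). For CDH13 it was -0.49 (-1.02 to 0.03), for PARP14 -0.18 (-0.57 to 0.21), and for SMOC1 -0.71 (-1.71 to 0.28). All 5 intervals hold 0, and differences within a gene's own interval are not excluded for that gene. The median difference over the interferon-stimulated genes was 0.06, and over the ribosomal protein genes it was 0.16.

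Some intervals did not hold 0, although none of these genes passed the adjustment. AGR2, a disulfide isomerase of secretory epithelium, was at 7.14, 1.93 and 5.23 CPM in combination tumours, against 1.44, 0.565 and 0.852 CPM in decitabine tumours, a log2 difference of 2.26 (95% interval 1.01 to 3.51, unadjusted p = 0.000937). EREG was at 19.7, 21.03 and 15.7 CPM in combination tumours, against 12.1, 11.0 and 12.4 CPM in decitabine tumours (0.66, 0.20 to 1.12). MMP1 differed by 1.60 (0.27 to 2.94), with combination 2 far above the rest. KIAA1958 was lower in combination tumours, at 6.71, 7.01 and 8.64 CPM, against 16.2, 9.04 and 12.1 CPM in decitabine tumours (-0.75, -1.21 to -0.30). The 4 genes were singled out after their values were seen, and AGR2 and EREG lie outside the rule for named genes.

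**Figure D5:**
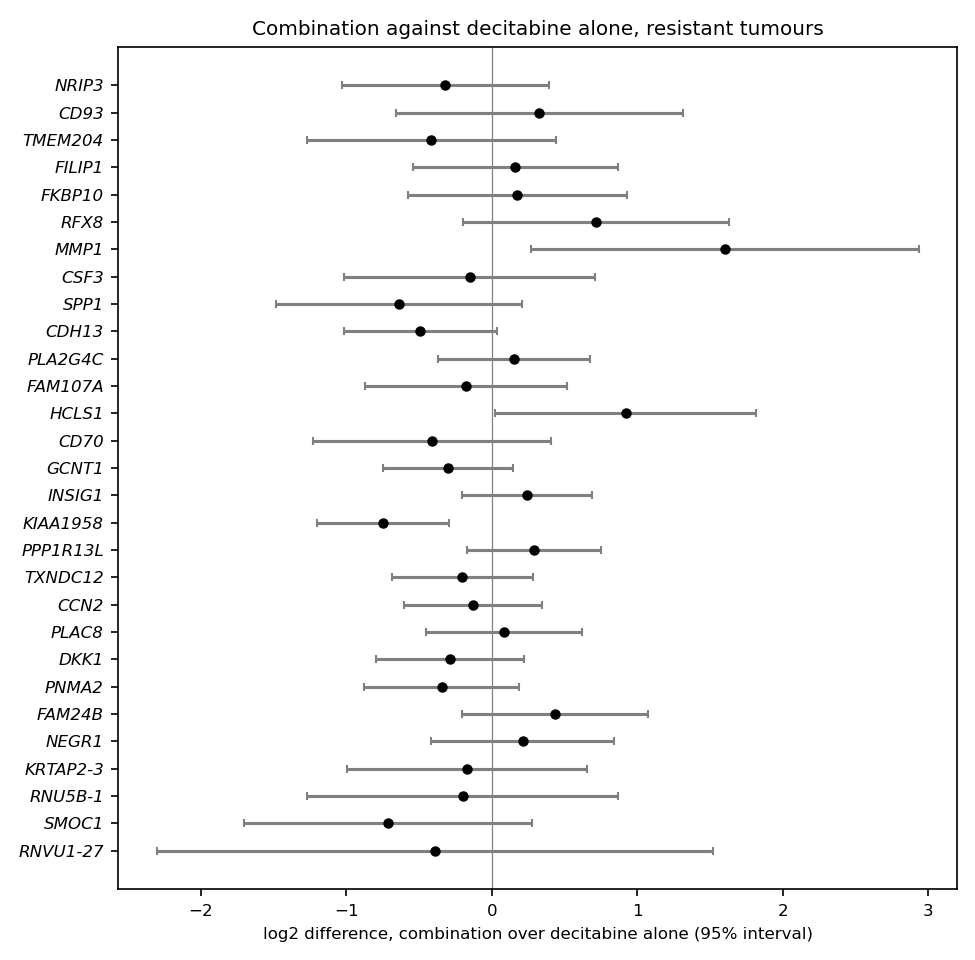
Log2 difference of combination over decitabine alone in resistant tumours (x axis, point, with its 95% interval as a bar) for genes with the largest called changes of combination against vehicle (rows, from the largest rise at the top to the largest fall at the bottom). Most intervals cross 0, and MMP1 at 1.60 and KIAA1958 at -0.75 are among those that do not. XIST, which the rule for named genes also selected, is not shown.

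Set beside each other, decitabine alone gave 450 called genes against the same vehicle libraries (3.33% of the genes tested, 2.03% higher and 1.3% lower), the combination 152 (1.13%) and doxorubicin alone 0 in edgeR, with 591 at an unadjusted p under 0.05. The 3 comparisons share the vehicle libraries and are given side by side only. For the interferon-stimulated genes the median log2 change was 0.66 in combination tumours, 0.65 in decitabine tumours and 0.39 in doxorubicin tumours.

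Against doxorubicin alone, 89 genes were called (0.66% of those tested), 80 of them higher (0.593%) and 9 lower (0.0667%) in combination tumours. The number was 52 without doxorubicin 1 and 59 without doxorubicin 2, and DESeq2 called 143. NRIP3 was at 8.01, 11.6 and 6.03 CPM in combination tumours, against 0, 0.218, 0.224 and 0 CPM in doxorubicin tumours (adjusted p = 1.94e-06). CD93 and PICSAR had no count in the doxorubicin tumours. CDH13 was higher by 2.15 (adjusted p = 2.34e-05) and ALDH1A3 by 1.60 (adjusted p = 0.000537) on the log2 scale. On the lower side, MT2A was at 2645, 2314, 1749 and 2243 CPM in doxorubicin tumours, and the combination was lower by -0.80 (adjusted p = 0.00595), while DKK1 differed by -0.9998 (adjusted p = 0.0388) and INSIG1 by -0.93 (adjusted p = 0.0176). PARP14 and DDX60 did not pass this test, at 0.56 (adjusted p = 0.187) and 0.54 (adjusted p = 0.272). SMOC1 did not pass it either, at 11.6, 10.0, 3.13 and 6.32 CPM in doxorubicin tumours (-1.22, adjusted p = 0.272).

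The test of whether the drugs together departed from the sum of their separate log2 effects called 0 genes in edgeR, with 406 at an unadjusted p under 0.05, and 0 in DESeq2.

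Whether resistant and parental tumours answered the combination differently was tested as a difference of differences, which called 3 genes (0.0222%), 2 with a positive difference (0.0148%) and 1 with a negative one (0.00741%). In the parental line itself, 1.03% of the genes tested were called for the combination against vehicle. ITGBL1 was at 3.17, 3.73, 2.83 and 2.29 CPM in parental combination tumours, against 5.10, 0.869, 1.80 and 1.60 CPM in parental vehicle tumours, and its response was larger in the resistant line by 5.06 on the log2 scale (SE 0.92, adjusted p = 0.0455). MMP16, a membrane-bound protease, was at 6.71, 7.98 and 7.44 CPM in resistant combination tumours, against 3.16 to 4.75 CPM under vehicle. That rise was not called by itself (log2 0.83, SE 0.25, adjusted p = 0.104). In the parental line it was lower under the combination, at 8.57 to 12.1 CPM against 16.5 to 19.03 CPM under vehicle (difference 1.66, SE 0.31, adjusted p = 0.0466). NUP93, a nuclear pore protein, had the opposite pattern, with a difference of -0.79 (SE 0.14, adjusted p = 0.0455). Its fall in resistant tumours was not called by itself either (log2 -0.34, SE 0.10, adjusted p = 0.106).

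This number was the least stable of the tests. It was 0 without parental combination 1 or 2, parental vehicle 3 or resistant vehicle 1, 2 or 4, and 5 without resistant vehicle 3, 6 without resistant combination 1, 14 without parental vehicle 1, 27 without parental combination 3 and 273 without resistant combination 3. DESeq2 called 212. PARP14 was at 78.4, 57.0, 96.7 and 77.1 CPM in parental combination tumours, against 68.9, 89.3, 87.7 and 91.3 CPM in parental vehicle tumours, and the difference between the lines did not pass (1.25, SE 0.25, adjusted p = 0.0536). The median of the interferon-stimulated genes was 0.66 in resistant tumours and 0.18 in parental tumours, each combination against vehicle, and this difference was not tested over the list.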

How the data were processed

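The members were chosen by sample title, and the members, the 41 gene lists and the tests were chosen with earlier results of these data known. RNA was made into 3′ tag libraries with the Lexogen QuantSeq FWD kit, per the labels' protocols, so a gene's level does not scale with its length. The authors deposited 1 table of raw read counts for 58302 genes in 29 libraries. The submitters' processing notes name cutadapt, STAR 2.7.3a, featureCounts, DESeq2 and GRCh38.p10, while neither the annotation release and strand setting nor how mouse reads were treated is recorded there.

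Totals were 3398261 to 5382295 counts per library. Genes were kept with edgeR's filter (minimum count 10, minimum total 15), which left 13495 genes with 99.72% of the counts, and 27963 genes had no count. Counts were scaled by TMM (factors 0.896 to 1.07) and fitted over all 29 libraries and 8 groups in edgeR 4.0.16 (R 4.3.3), with quasi-likelihood tests and Benjamini-Hochberg adjustment over all genes tested, called at an adjusted p under 0.05. DESeq2 1.42.0, other scalings, filters, sets of libraries and a replicate block were alternatives. The procedure was tested on simulated counts. Within groups, the closest pair of libraries still differed by a chi-square of 3.65 per degree of freedom, so none was counted as a duplicate.

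CPM values use TMM-scaled library sizes. Gene positions came from GENCODE v29 on GRCh38, and promoters from RefSeq on GRCh38.p14. Gene symbols came from a reference list of gene names, or from GENCODE v29 where that list had none. The rule for named genes took the 15 largest called changes in each direction with a mean of at least 5 CPM, up to 5 for each other test, up to 4 called genes per list, and a few fixed genes. PICSAR, PTPN7, LRRC17, CACNG8, ALDH1A3, EREG, AGR2, IFIH1, RSAD2, ISG15, IFI44, IFI27, AMIGO2, S100A6, THBS1, JAG1, CSPG4, ECSCR and H4C2 lie outside it and were chosen after their values were seen.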

Additional observations from a re-analysis of the deposited data

Results flagged for a closer look

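For 85 genes the same 4 vehicle libraries were examined for 1 library far from the others, and 11 genes had one. The usual chance rate of about 1 in 20 does not apply. The genes share the libraries, and most were picked because they were called, so no excess is read from the number. The high ones were MMP1 in vehicle 2 at 11.2 CPM, ECSCR in vehicle 3 at 17.6 CPM, PECAM1 in vehicle 3 at 7.24 CPM, OAS2 in vehicle 3 at 36.4 CPM, ITGBL1 in vehicle 4 at 0.226 CPM, INPP5D in vehicle 4 at 0.452 CPM and HAPLN1 in vehicle 1 at 0.243 CPM. The low ones were TRAF1 in vehicle 4 at 4.75 CPM, PTPN7 in vehicle 1, CACNG8 in vehicle 2 and LRRC17 in vehicle 4 at 0. Of these, ITGBL1, INPP5D, HAPLN1, PTPN7, CACNG8 and LRRC17 rest on a few counts in the whole group.

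The response to the combination differed between resistant and parental tumours for ITGBL1 by 5.06, for MMP16 by 1.66 and for NUP93 by -0.79 on the log2 scale, each tested as a difference of differences in edgeR.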

How the results depend on the processing

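Against vehicle, 123 genes were higher and 29 lower. The counts were 206 and 50 with DESeq2, 351 and 432 with no filter on low counts, 234 and 129 without 2 libraries that stood apart (parental vehicle 3 and resistant decitabine 2), 50 and 16 with only the 7 libraries compared, and 83 and 14 with only the 14 resistant libraries. Without 1 library they lay between 46 and 142 higher and between 3 and 38 lower. Against decitabine alone no filter gave 48 genes, and every other setting gave 0. Against doxorubicin alone DESeq2 gave 143, no filter 543 and the fit without those 2 libraries 193, with 52 to 74 without 1 library. For the line difference DESeq2 gave 212, DESeq2 size factors 5 and no filter 1109, with 0 to 273 without 1 library. The interaction gave 40 with no filter. The causes were not tested. The direction of DNMT3A turned without combination 1 (0.080), combination 3 (0.011) or vehicle 2 (0.16), with values between -0.21 and 0.16 over all such fits, and that of DNMT3B without combination 2, between -0.36 and 0.67, all log2 and none called.

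Replicate numbers were not shown to pair the samples: deviations of same-numbered combination and vehicle libraries correlated at 0.0168, 0.385 and 0.0595. With the replicate number as a block 101 genes were higher and 24 lower, 83 were called against doxorubicin alone, 1 for the line difference and 5 interferon-stimulated genes. Low genes limit the precision, since 1 count was worth about 0.2 CPM.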

Other observations

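Further called genes, chosen after their values were seen, were structural and surface proteins. CLDN4 falls under the rule for named genes as the 1 called higher of 15 epithelial genes tested, against 0.911% of all genes tested. CSPG4 and ECSCR lie outside the rule. CLDN4, a tight junction claudin, was at 44.8, 35.8 and 32.6 CPM in combination tumours, against 13.1, 17.7, 24.7 and 14.2 CPM in vehicle tumours (log2 1.11, SE 0.18, adjusted p = 0.000646). CSPG4, a chondroitin sulfate proteoglycan of the cell surface, was at 62.4, 39.6 and 44.4 CPM in combination tumours, against 17.2, 20.3, 25.3 and 30.5 CPM in vehicle tumours (log2 1.06). ECSCR, a surface protein known from endothelium, was at 26.2, 41.3 and 28.7 CPM in combination tumours, against 7.04, 6.33, 17.6 and 5.88 CPM in vehicle tumours (log2 1.79, adjusted p = 0.00493). None of the 3 overlapped between the groups, and each was called in 7 of 7 fits that left out 1 library.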
